A study of Mus musculus with 16 samples.

Results

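The miR-22 hairpin gives rise to 2 mature microRNAs (miRNAs), the guide strand miR-22 (mmu-miR-22 on the array) and its partner from the other side of the hairpin, miR-22* (mmu-miR-22*). Both were measured in mouse liver tumours and in control liver, and they were taken by their names on the array, as 2 of the 566 mouse miRNAs it carries. Liver came from male C3H/HeJ mice, an inbred strain prone to liver tumours, and each of the 16 samples had its own 1-colour Agilent array, on which 25 ng of total RNA was hybridised. The sample titles form 4 groups: 7 tumours with mutated Ctnnb1 and 3 non-tumour control livers, all from mice given phenobarbital, and 3 tumours with mutated Ha-ras and 3 non-tumour control livers, all from mice given none. The last 3 are called untreated controls here, for the lack of phenobarbital alone. Ctnnb1 encodes beta-catenin, the transcriptional coactivator of Wnt signalling, and Ha-ras a GTP-binding switch that feeds the MAP kinase cascade. Phenobarbital, a sedative, promotes the outgrowth of liver tumours in rodents.

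Per the series' design text, tumours followed 1 injection of the liver carcinogen diethylnitrosamine (DEN, 10 or 90 µg per g), given when mice were 2 or 6 weeks old, then a diet with 0.05% phenobarbital or none for 28 to 36 weeks. The sample labels give a treatment of 27 weeks, and their protocol text describes 28 days of phenobarbital in drinking water begun in mice obtained at 29 to 32 days of age. These accounts conflict, so dose and age are not settled for single samples. The sources used here do not state which controls received DEN, whether samples share an animal, or which other cells a tumour piece held. The p-values then reflect only how these samples vary, which may be technical. Mutation and phenobarbital differ together between both tumour kinds and cannot be told apart there.

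A miRNA is cut from a hairpin RNA as a short duplex, and 1 strand, the guide, is usually kept by an Argonaute protein while the other, the star strand, is mostly degraded. The guide pairs with messenger RNAs through its seed, bases 2 to 8, and lowers their translation or stability. miR-22 is widely expressed and abundant in liver. Each copy of the precursor holds both strands.

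The mature sequences are printed because they show that both strands lie on 1 hairpin but carry different seeds, in capitals. They are RefSeq's, on GRCm38; the star on the array corresponds by position to RefSeq's miR-22-5p and the guide to miR-22-3p.
miR-22: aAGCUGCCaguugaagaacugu
miR-22*: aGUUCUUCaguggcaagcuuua
Each is 22 bases long. miR-22 lies at chr11:75463772-75463793 and miR-22* at chr11:75463734-75463755, both on the plus strand. Each seed was held by 1 of the 1738 mature entries of the table, the member itself, so no other listed mouse miRNA shares it. G and C make up 45.5% of the guide and 40.9% of the star.

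The hairpin, Mir22, spans chr11:75463716-75463810 (GRCm38, plus strand, 95 bases). It is printed to show the order of both strands, which are in capitals with the star first and 16 bases between them.
Mir22: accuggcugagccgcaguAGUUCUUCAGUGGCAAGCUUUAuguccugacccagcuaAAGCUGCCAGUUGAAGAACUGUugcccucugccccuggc
The star occupies bases 19 to 40 of the hairpin and the guide bases 57 to 78. The hairpin lies within Mir22hg, a long non-coding host gene of 5152 bases at chr11:75461539-75466690. Within 1000 kb the RefSeq table lists 4 other hairpins, and 2 of their miRNAs, miR-132 and miR-212, were on the array. Neither was detected on any array, so no neighbouring miRNA could be compared with miR-22.

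On each array 11540 of 12493 spots were not control spots, none was saturated, 11.7 to 16.5% were well above background and 83 to 117 mouse miRNAs were detected. A miRNA counted as detected where most usable spots of any of its probes were well above background. Arrays were scaled by the 75th percentile of 117 probes detected on all 16 arrays, which ran from 386 to 1248, the highest on Ha-ras tumour replicate 1. Levels are log2 of the scaled intensity with a floor at 4.63, and differences between groups are log2 differences of these levels. The hepatocyte marker miR-122 was among the brightest signals in every group, at 13.08 to 14.18 in Ctnnb1 tumours, 13.94 to 14.21 in phenobarbital controls, 13.96 to 14.46 in Ha-ras tumours and 14.13 to 14.23 in untreated controls. miR-1, miR-133a, miR-124 and miR-375, marks of muscle, nerve and endocrine tissue, were detected on 0 arrays. In such bulk tissue, fewer cells of a type and less RNA per cell cannot be told apart.

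miR-22 (mmu-miR-22) was lowest in the Ha-ras tumours and lay at similar levels in the other groups, as the plot of both strands by array shows. It was detected on all 16 arrays. In the Ctnnb1 tumours, replicates 1 to 7 stood at 11.68, 11.80, 11.51, 11.80, 12.37, 11.53 and 11.57, with a mean of 11.75 ± 0.30 (SD, n = 7). In the phenobarbital controls, replicates 4 to 6 stood at 11.85, 11.78 and 11.89, with a mean of 11.84 ± 0.06 (SD, n = 3). The phenobarbital controls lay close together and inside the range of the Ctnnb1 tumours, whose replicate 5 stood above all other arrays of the study. In the untreated controls, replicates 1 to 3 stood at 11.74, 11.84 and 11.63, with a mean of 11.74 ± 0.11 (SD, n = 3). In the Ha-ras tumours, replicates 1 to 3 stood at 10.91, 11.16 and 11.53, with a mean of 11.20 ± 0.31 (SD, n = 3). All 3 Ha-ras tumours lay below all 3 untreated controls, the closest pair being 11.53 and 11.63. From the highest mean to the lowest, the order was phenobarbital controls, Ctnnb1 tumours, untreated controls and Ha-ras tumours, and the ranges of the first 3 overlapped.

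**Figure D1:**
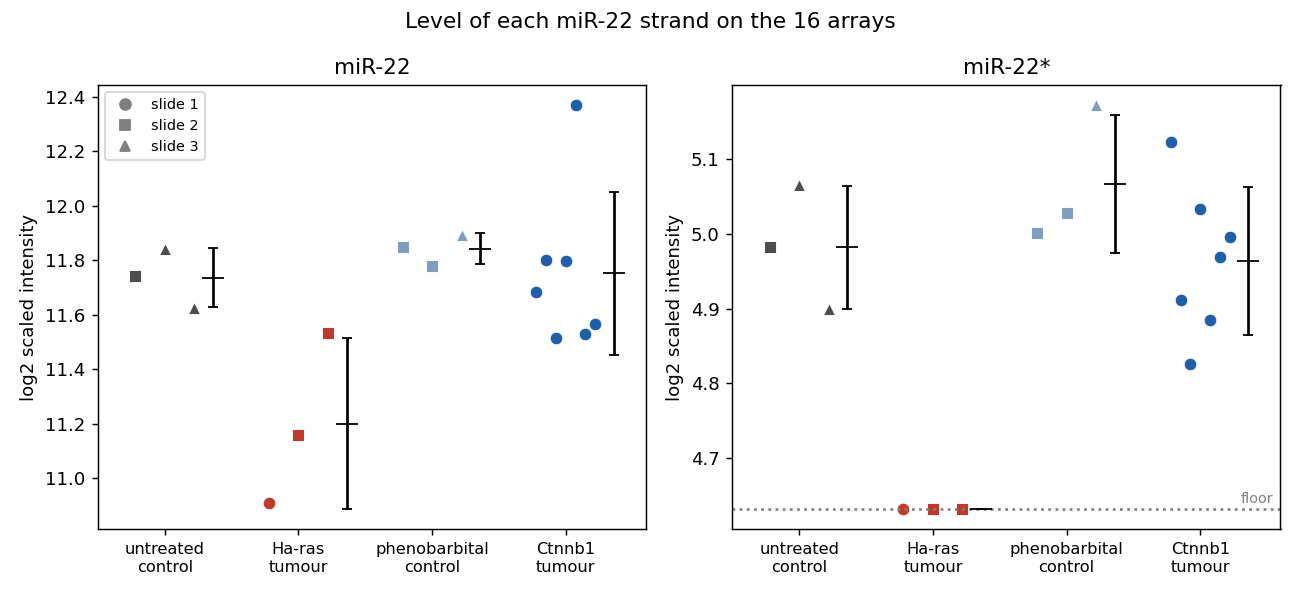
Level of miR-22 (left) and miR-22* (right) on each of the 16 arrays, as log2 scaled intensity on separate vertical axes; a point is 1 array, its shape the slide, and bars are the group mean ± SD. The Ha-ras tumours have the lowest mean miR-22 level, with arrays from 10.91 to 11.53 that reach into the Ctnnb1 tumours, and all 3 lie on the floor of 4.63 (dotted line) for miR-22*, below every array of the other groups.

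miR-22 stood 1.45-fold lower in the Ha-ras tumours than in the untreated controls, a log2 difference of -0.54 ± 0.20 (SE), 95% interval -0.96 to -0.11. The difference did not pass the threshold of 0.05: limma's adjusted p over 96 tested miRNAs was 0.0549, unadjusted 0.0175, and 35.4% of the miRNAs had an unadjusted p under 0.05. In this comparison 29.2% of the tested miRNAs passed, 19.8% lower and 9.38% higher, and 26% had Ha-ras tumours wholly below untreated controls, so such a separation was common. Among the 72 miRNAs detected on all arrays miR-22 ranked 12th lowest, 0.35 below their median change of -0.19. This order is not free of array scaling, since probes at the floor do not move with the scaling factor. An exact two-sided permutation test gave p = 0.1, the smallest that 3 against 3 arrays can give. Leaving out Ctnnb1 tumour replicate 5, which enters through the shared spread, gave an adjusted p of 0.0114, and leaving out Ha-ras replicate 3 a difference of -0.70 at 0.0254. In the other direction it was -0.39 (0.237) without Ha-ras replicate 1, -0.51 (0.140) without Ha-ras replicate 2 and -0.48 (0.154) without untreated control replicate 2. On slide 2, the only slide with both groups, 2 tumours and 1 control differed by -0.40 (limma's adjusted p = 0.277, with the lone control assumed to vary like the others), and with a fixed slide term -0.37 (0.433).

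The Ctnnb1 tumours held 1.47-fold more miR-22 than the Ha-ras tumours, and this difference passed the test. It was 0.55 ± 0.17 (SE), 95% interval 0.19 to 0.91, with limma's adjusted p = 0.0281, in a comparison where 30.2% of the 96 miRNAs passed, 16.7% higher and 13.5% lower. Before adjustment, 38.5% reached a p under 0.05. The groups overlapped, since Ha-ras replicate 3 at 11.53 lay at or above Ctnnb1 replicates 3 and 6, at 11.51 and 11.53. The exact two-sided permutation test gave p = 0.0333, or 0.133 after Benjamini-Hochberg adjustment over the 8 such tests of both strands. The call was lost without Ha-ras replicate 1 (0.41, adjusted p = 0.151) or replicate 2 (0.53, adjusted p = 0.106). On slide 1, which held all Ctnnb1 tumours and 1 Ha-ras tumour, the difference was 0.84. That Ha-ras tumour was replicate 1, whose miR-22 level of 10.91 was the lowest of all arrays. With slide as a fixed block the difference was also 0.84 (limma's adjusted p = 0.0728), and it rests on the same tumour.

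No difference in miR-22 was called between the Ctnnb1 tumours and the phenobarbital controls, at -0.09 ± 0.17 (SE, limma's adjusted p = 0.783), with a 95% interval of -0.45 to 0.27. In that comparison 8.33% of the miRNAs passed, all of them lower. Before adjustment, 21.9% reached a p under 0.05. The groups did not overlap for 13.5% with tumours lower and 1.04% with tumours higher. Without Ctnnb1 replicate 5 the difference was -0.19 (adjusted p = 0.355). The phenobarbital controls differed from the untreated controls by 0.11 ± 0.20 (SE, limma's adjusted p = 0.866), 95% interval -0.32 to 0.53, where 0% of the miRNAs passed and 6.25% had an unadjusted p under 0.05, with control groups that did not overlap for 10.4% in the lower and 14.6% in the higher direction. The control groups differed by 0.07 within slide 2 and 0.16 within slide 3. No slide held both Ctnnb1 tumours and phenobarbital controls, and with slide as a fixed block, which joins them through other groups, their difference turned to 0.36 (limma's adjusted p = 0.775). The direct test of whether the 2 tumour effects differed gave 0.45 ± 0.26 (SE), 95% interval -0.11 to 1.0, and limma's adjusted p = 0.405, where 2.08% passed and 17.7% had an unadjusted p under 0.05.

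The level of miR-22 moved with the percentile by which its array was scaled. In the Ha-ras tumours the percentile was 1248, 707 and 459 for replicates 1 to 3, against miR-22 levels of 10.91, 11.16 and 11.53. Over all 16 arrays, Pearson's r between the level and log2 of the percentile was -0.71 and Spearman's rho -0.69, and within the 7 Ctnnb1 tumours r was -0.76 and rho -0.75. Without the 2 arrays of most extreme percentile r was -0.52 over all arrays and -0.51 in the Ctnnb1 tumours. Each level was divided by this percentile, so a negative r is partly built in, and these values are a description with no test. The other miRNAs share that construction: of the 71 others detected on all arrays 0 had a lower r in either set, and their median r was -0.19 over all arrays and -0.11 in the Ctnnb1 tumours. For miR-22* in the Ctnnb1 tumours r was 0.15 and rho 0.21. Before scaling, the brighter miR-22 probe ran from 3665 to 6577 in Ha-ras tumours and from 4230 to 6102 in untreated controls, and these ranges overlap. The part of the scaling percentile in the differences of miR-22 was not tested.

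miR-22* (mmu-miR-22*) was a dim signal in all groups and was at the floor on all 3 arrays of the Ha-ras tumours. It was detected on 13 of 16 arrays, each time by the brighter of its probes. In the Ctnnb1 tumours, replicates 1 to 7 stood at 5.12, 4.91, 4.83, 5.03, 4.88, 4.97 and 5.00, with a mean of 4.96 ± 0.10 (SD, n = 7) and 6 of 7 detected. In the phenobarbital controls, replicates 4 to 6 stood at 5.00, 5.03 and 5.17, with a mean of 5.07 ± 0.09 (SD, n = 3) and 2 of 3 detected. Both groups lay in nearly the same range. In the untreated controls, replicates 1 to 3 stood at 4.98, 5.06 and 4.90, with a mean of 4.98 ± 0.08 (SD, n = 3) and 3 of 3 detected. In the Ha-ras tumours all 3 replicates stood at 4.63, the floor, with 2 of 3 detected. The floor is the lowest signal of any detected probe, taken per array and then as the median of the 16, so a spot can be detected and still lie under it; a zero spread there comes from the floor, and the 3 tumours have no order.

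The Ha-ras tumours held less miR-22* than the untreated controls, and all 3 tumours lay below all 3 controls, as for 26% of the tested miRNAs. The log2 difference was -0.35 ± 0.10 (SE), 95% interval -0.56 to -0.14, with limma's adjusted p = 0.0146, in the comparison where 19.8% of miRNAs were called lower. miR-22* entered the test only through the untreated controls, the 1 group in which all arrays detected it and the higher side of this comparison. The Ctnnb1 tumours held more miR-22* than the Ha-ras tumours, by 0.33 ± 0.08 (SE), 95% interval 0.16 to 0.51, with limma's adjusted p = 0.0134. These groups did not overlap, as for 12.5% of the tested miRNAs, and 16.7% were called higher. Exact two-sided permutation tests gave p = 0.1 and 0.00833, each the smallest its group sizes allow, the second 0.0667 after adjustment over 8 tests. The floor sets the size of both differences, since it lifts the Ha-ras tumours, and it holds their spread at 0, which enters the SE. With a floor 4 times lower the differences were -0.87 (limma's adjusted p = 0.0021) and 0.84 (0.000602). On the brighter probe alone with that floor they were -0.93 (0.000624) and 0.87 (0.000133). With normexp background correction, which sets no such floor but adds an offset of 50, they were -0.44 and 0.36, and neither passed. The brighter miR-22* probe ran from 16 to 65.7 before scaling on the 16 arrays, so that offset itself narrows its log2 differences. The first call ended without untreated control replicate 2, at an adjusted p of 0.0782, and without Ha-ras replicate 1, at 0.0538. The second ended without Ha-ras replicate 2, at 0.0663. Within slide 2 the Ha-ras tumours differed from the lone untreated control by -0.35, and within slide 1 the Ctnnb1 tumours from the lone Ha-ras tumour by 0.33. A fixed slide term gave -0.30 (limma's adjusted p = 0.235) and 0.33 (0.186). The last difference could not change with slide, since slide 1 held all Ctnnb1 tumours and every Ha-ras tumour stood at the floor. It is therefore no check of a slide effect.

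The Ctnnb1 tumours and the phenobarbital controls differed in miR-22* by -0.10 ± 0.08 (SE, limma's adjusted p = 0.471), 95% interval -0.28 to 0.07. The phenobarbital controls differed from the untreated controls by 0.08 ± 0.10 (SE, limma's adjusted p = 0.722), 95% interval -0.12 to 0.29, and by 0.03 within slide 2 and 0.19 within slide 3. Neither passed. The test of whether the 2 tumour effects differed gave 0.25 ± 0.13 (SE, limma's adjusted p = 0.306), 95% interval -0.03 to 0.52, so a different effect in both tumour kinds was not shown for either strand.

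Each strand was read by 2 probes of 10 spots each, and the probes show what the floor hides. The brighter miR-22* probe, as scaled intensity before the floor, ran from 36.0 to 45.2 with a median of 40.3 in untreated controls and from 20.4 to 22.1 with a median of 21.3 in Ha-ras tumours. It ran from 41.4 to 48.0 in phenobarbital controls and from 32.5 to 45.7 in Ctnnb1 tumours. On this probe the Ha-ras tumours lay below every other array, with 10, 8 and 0 of 10 spots well above background on replicates 1 to 3. Without the floor the Ha-ras tumours were 1.90-fold lower than the untreated controls and the Ctnnb1 tumours 1.83-fold higher than the Ha-ras tumours, folds that include the value of replicate 3, which is not above background. The dimmer miR-22* probe was detected on 1 of 16 arrays and lay at the floor on 14, and its spots of 1 array had a median coefficient of variation of 26.1%, against 13.9% for the brighter. Its values, 10.6 to 11.5 in Ha-ras tumours and 18.1 to 22.5 in untreated controls, are mostly not well above background. Before scaling, the brighter miR-22* probe ran from 16 to 41.7 in Ha-ras tumours and from 30.1 to 42.0 in untreated controls, which overlap.

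**Figure D2:**
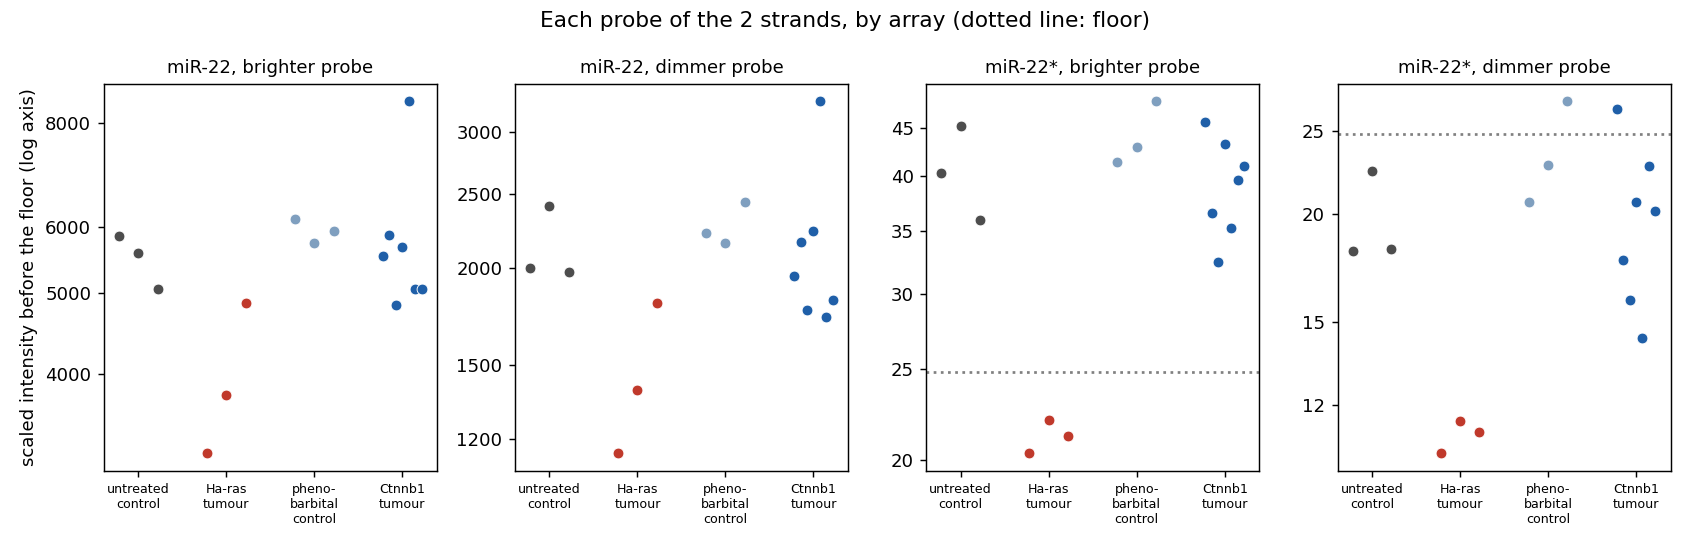
Scaled intensity of each probe before the floor, on a log axis that differs between panels; a point is 1 array and the dotted line is the floor. On both miR-22 probes the Ha-ras tumours lie below the untreated controls and overlap the Ctnnb1 tumours, and the brighter miR-22* probe places them at 20.4 to 22.1, below the 32.5 to 48.0 of all other arrays.

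On both miR-22 probes the Ha-ras tumours had the lowest group mean and the phenobarbital controls the highest on the log2 scale, while the Ctnnb1 tumours and untreated controls changed places. The brighter ran from 5051 to 5856 in untreated controls and from 3210 to 4869 in Ha-ras tumours, and the dimmer from 1976 to 2411 and from 1152 to 1804. The Ha-ras tumours were 1.41-fold lower on the brighter probe and 1.49-fold lower on the dimmer, with no overlap on either. In Ctnnb1 tumours they ran from 4839 to 8507 and from 1727 to 3293, and in phenobarbital controls from 5745 to 6145 and from 2156 to 2438. Spots of 1 array varied by a median of 3.97% on the brighter probe and 4.83% on the dimmer.

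The difference between both strands within an array cannot be moved by array scaling, and it was taken on the brighter probe of each without the floor. It was larger in all 3 Ha-ras tumours than in all 3 untreated controls, by 0.43, or 1.35-fold, so on these probes without the floor the star differed by more than the guide. The exact two-sided permutation test gave p = 0.1, the smallest these group sizes allow, and 0.367 after adjustment over 4 comparisons, so the difference did not pass. The Ctnnb1 tumours differed from the Ha-ras tumours by -0.32 (exact permutation p = 0.183), from the phenobarbital controls by 0.12 (exact permutation p = 0.692), and the 2 control groups differed by -0.01 (exact permutation p = 1). Part of the star's signal in the Ha-ras tumours is near background. On the reported levels, which include the floor, the guide differed by more than the star in Ha-ras tumours against untreated controls, at -0.54 and -0.35. With normexp background correction they differed by -0.48 and -0.44.

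The direction of miR-22 in the Ha-ras tumours, and the size of both strands' differences, depended on what the arrays were scaled to, as the plot of the differences under other processing shows. Scaling by the 75th percentile of all mouse probes, where that percentile lay at signals of 2.88 to 5.94, near background, turned the miR-22 difference against the untreated controls to 0.04 and brought the miR-22* difference to -0.16 (limma's adjusted p = 0.999 and 0.670). It moved the median of all 96 miRNAs from -0.06 to 0.28, and relative to that median miR-22 stood at -0.25 and miR-22* at -0.44. In Ctnnb1 against Ha-ras tumours it gave 0.0029 for miR-22 and 0.17 for miR-22*, with a median of -0.32, so that relative to the median they stood at 0.32 and 0.49. With that scaling 12 miRNAs were called higher and 0 lower in Ha-ras tumours against untreated controls, where the reported scaling called 9 higher and 19 lower. For Ctnnb1 against Ha-ras tumours it called 2 higher and 20 lower, where the reported scaling called 16 higher and 13 lower. Quantile scaling called 12 higher and 14 lower in the first of these, normexp background 6 and 7 and the software's gene signal 6 and 24, and scaling by the median called 22 higher and 10 lower in the second. In the deposited table miR-22* of Ha-ras replicates 1 to 3 is 4.81, 4.33 and -1, the table's lowest value, beside 5.68, 5.64 and 4.74 in the untreated controls, so the difference of -2.64 in that table rests largely on replicate 3.

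**Figure D3:**
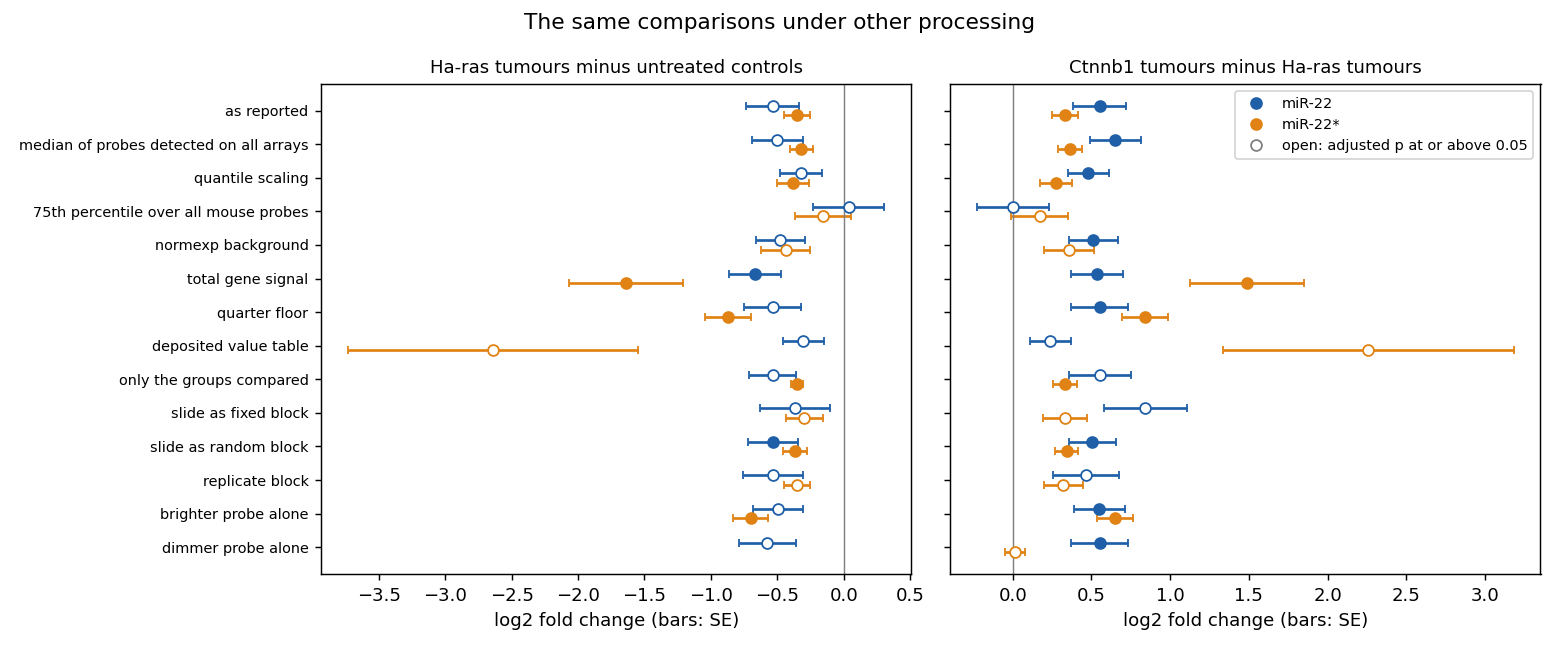
Log2 difference (point) and SE (bar) of miR-22 and miR-22* under each processing choice for Ha-ras tumours minus untreated controls (left) and Ctnnb1 minus Ha-ras tumours (right); filled points have an adjusted p under 0.05. For miR-22 in Ha-ras tumours only the scaling by all mouse probes lies above 0, at 0.04, and miR-22* ranges from -2.64, in the deposited table with replicate 3 at its lowest value, to -0.16.

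By Pearson's r over the 16 arrays, the miRNAs most like miR-22 among the 71 others detected on all of them were miR-29c (Pearson's r 0.836, Spearman's rho 0.615), miR-15a (0.812 and 0.562), miR-27b (0.764 and 0.700), miR-16 (0.714 and 0.324) and miR-30e (0.668 and 0.553). miR-29c is known for lowering collagen messages, miR-15a and miR-16 for lowering cell-cycle and survival messages. The least like it were miR-34a, a p53 target (r -0.684), let-7d, of a family that lowers growth messages (-0.584), and miR-21, which is raised in many tumours (-0.580). The median r was 0.217 and 51 of 71 were above 0. These are descriptions over arrays that share 4 groups and 1 scaling factor each, which by itself moves all miRNAs of an array together. Without Ctnnb1 replicate 5, r was 0.767 for miR-29c, 0.797 for miR-15a and 0.514 for miR-30e, while miR-23b (0.825) then ranked first and miR-30b stood at 0.798. By Spearman's rho miR-23b (0.779) and miR-720 (0.735) led; these 3 were chosen after their values were seen. The order therefore depends on that array and on the measure. miR-22 and miR-22* had r 0.625 and rho 0.619.

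**Figure D4:**
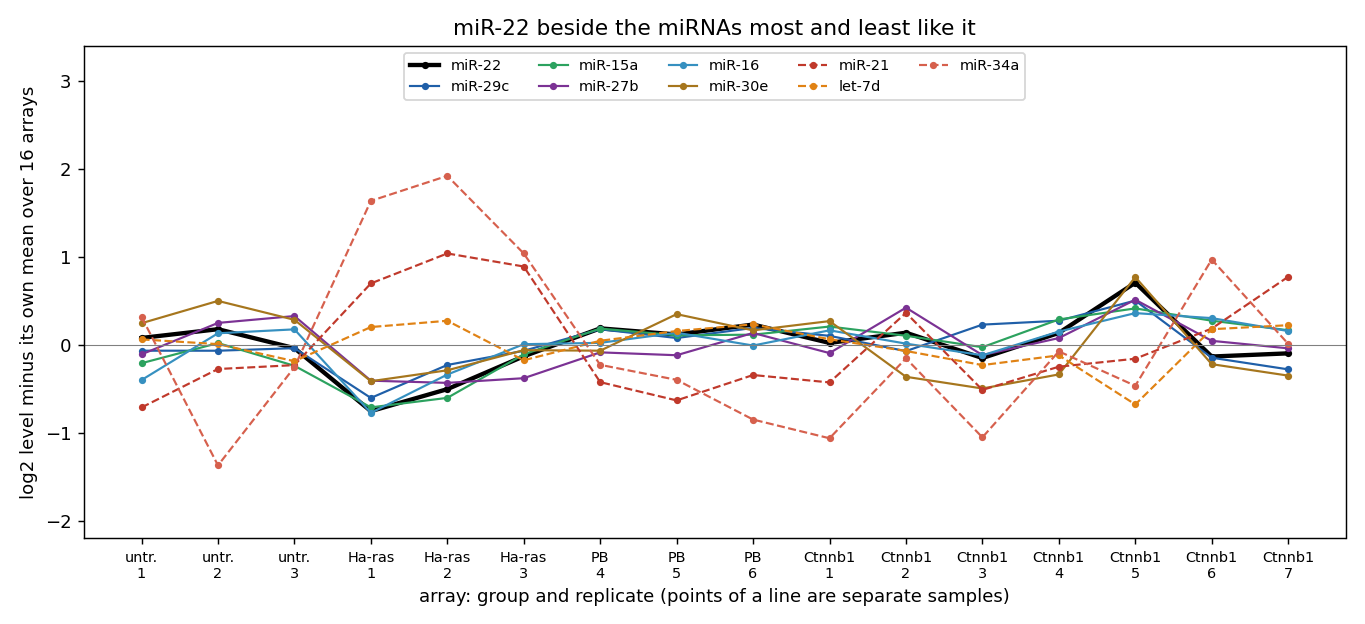
Log2 level of miR-22, of the 5 miRNAs most like it (solid) and of the 3 least like it (dashed), each minus its own mean over the 16 arrays; a point is 1 array and lines only join the points of 1 miRNA. The solid lines are low at Ha-ras replicates 1 and 2 and high at Ctnnb1 replicate 5, while miR-34a and miR-21 are high in the Ha-ras tumours.

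Of 7 other hepatocyte-enriched miRNAs tested in the Ha-ras tumours, 1 was called lower and 0 higher against untreated controls, miR-378 at -0.41 (limma's adjusted p = 0.0162), where 19.8% of all tested miRNAs were called lower and 9.38% higher. miR-101a stood at -0.34 (adjusted p = 0.299), miR-148a at -0.22 (0.353) and miR-192 at -0.17 (0.425), while miR-194 stood at 0.24 and miR-101b at 0.11. The list's median was -0.17, beside -0.06 over all tested miRNAs. miR-122, the most liver-specific of them, stood at 0.06 (adjusted p = 0.910). Against the Ha-ras tumours 2 of the 7 were called lower in the Ctnnb1 tumours, miR-101b at -0.63 (limma's adjusted p = 0.0186) and miR-122 at -0.59 (0.0407). Of all tested miRNAs 13.5% were called lower in this comparison and 16.7% higher, miR-22 among the latter. The list's median was -0.21, beside 0.08. Against their own controls 0 of the 7 passed in Ctnnb1 tumours by limma, where 8.33% of all tested miRNAs did, with a median of -0.14, beside -0.05.

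Among miRNAs known as raised by p53, 6 of 10 were tested. In Ha-ras tumours against untreated controls 1 was called higher, miR-34a at 1.97 (limma's adjusted p = 0.00845), and 0 lower. Of all tested miRNAs 9.38% were called higher there and 19.8% lower. miR-15a stood at -0.33 (adjusted p = 0.121) and miR-16 at -0.34 (0.225), and the list's median was -0.11, beside -0.06. In Ctnnb1 against Ha-ras tumours miR-15a was higher by 0.68 (limma's adjusted p = 0.00164) and miR-16 by 0.52 (0.0284), as miR-22 was. There miR-34a was lower at -1.79 (limma's adjusted p = 0.00897). Of all tested miRNAs 16.7% were called higher in this comparison and 13.5% lower. The list's median was -0.07, beside 0.08. In Ctnnb1 tumours against phenobarbital controls 0 passed, where 8.33% of all tested miRNAs did, and the list's median was 0.04, beside -0.05.

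Of 115 star strands on the array 5 were tested, and for 4 of them the guide was tested too: miR-140, miR-22, miR-30a and miR-30e. In Ha-ras tumours against untreated controls both strands were called for none of the 4. miR-30e resembled miR-22, with the guide at -0.60 (limma's adjusted p = 0.119) and the star called at -0.26 (0.0420). In both hairpins the guide had the larger difference and the larger SE, 0.20 beside 0.10 for miR-22 and 0.27 beside 0.09 for miR-30e. miR-22* stood at the floor on all 3 Ha-ras arrays, which holds its spread there at 0. It entered the test only through the untreated controls, and miR-30e* was detected on 12 of 16 arrays. These calls therefore do not show that the star changed and the guide did not. The guide and star stood at 0.21 and 0.18 for miR-140 and at 0.07 and -0.04 for miR-30a, none of which passed. In Ctnnb1 tumours against phenobarbital controls the stars of miR-30a (-0.48, limma's adjusted p = 0.00382) and miR-30e (-0.40, 0.00318) were called lower, and their guides stood at -0.39 (0.319) and -0.25 (0.549). miR-22* was not called there. The guide and star of miR-140 stood at -0.29 and 0.16.

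**Figure D5:**
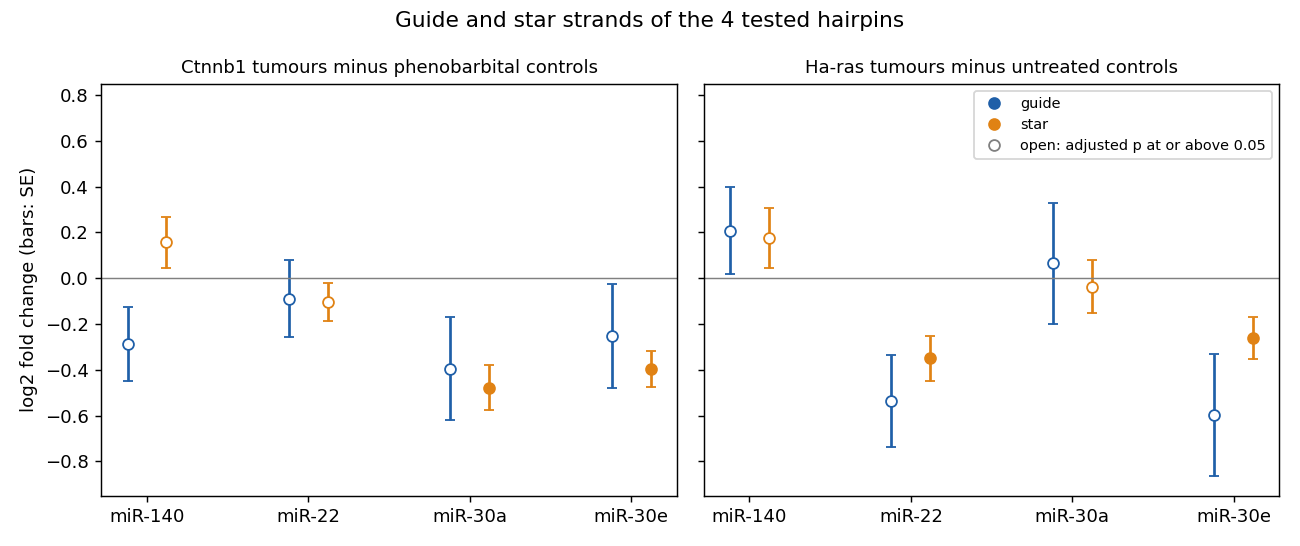
Log2 difference (point) and SE (bar) of the guide and star strand of the 4 hairpins with both strands tested, in each tumour kind against its controls; filled points have an adjusted p under 0.05. In the Ha-ras tumours both strands of miR-22 and miR-30e lie below 0 and only the star is filled, while the guides have the larger SE. miR-22* stood at the floor on all 3 Ha-ras arrays.

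Some markers of other cells moved with the tumour groups. Of 5 endothelial and mesenchymal miRNAs 3 were tested. Against untreated controls 2 of these were called lower in Ha-ras tumours, miR-199a-3p (-1.51, limma's adjusted p = 0.000509) and miR-143 (-0.68, 0.0146), where 19.8% of all tested miRNAs were. miR-143 was detected on none of the Ha-ras tumours, so it entered the test only through other groups and its Ha-ras level is only a bound. miR-199a-3p was also called lower in Ctnnb1 tumours against phenobarbital controls (-1.16, limma's adjusted p = 0.00187), where miR-22 was not called. The log2 of the list's summed linear levels ran from 9.24 to 9.55 in Ha-ras tumours, 9.53 to 9.88 in untreated controls, 9.91 to 9.91 in phenobarbital controls and 9.34 to 9.80 in Ctnnb1 tumours. Such a sum mostly follows the brightest member, miR-126-3p, whose group means ran from 9.12 to 9.60. miR-145 and miR-214 were detected on no array. The leukocyte list ran from 7.79 to 8.91, 8.12 to 8.90, 8.62 to 8.80 and 8.24 to 9.06 in the same order, and the erythroid list from 10.53 to 12.40, 10.33 to 12.29, 11.68 to 12.16 and 10.92 to 12.03. Of the leukocyte markers miR-223 was called higher in Ctnnb1 than in Ha-ras tumours (0.82, limma's adjusted p = 0.0188), in the same comparison and direction as miR-22, and miR-142-3p stood at 0.57 (0.209). The part of other cell types in the miR-22 differences was not tested.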

How the data were processed

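The authors deposited 1 scanner file per array, whose spot signals are intensity values on a linear scale from Agilent Feature Extraction 10.7.3.1, background-subtracted but not scaled between arrays, per the file headers. Flags in these deposited files mark outlier spots and spots well above background. The authors' value table holds log2 values of 147 entries, from -1 to 14.88, normalised between arrays by a method not given in the sources used here; its columns share nearly 1 set of values. R 2.14.1 is named in the submitters' processing notes.

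Outlier spots were dropped and the remaining spots averaged per probe. Each array was divided by its 75th percentile over the 117 of 1672 mouse probes detected on all arrays and multiplied by a common constant of 609. Values under 24.8 were set to it, log2 was taken and the probes of a miRNA were averaged. The 96 miRNAs that all arrays of some group detected were fitted as 4 group means over 16 arrays with limma 3.58.1 (lmFit and eBayes, R 4.3.3), and p-values were adjusted by Benjamini-Hochberg over the 96 at a threshold of 0.05. The scripts were tested on simulated data. The number of arrays limits the precision. Named miRNAs are the members, tested members of the hepatocyte-enriched and p53-induced lists, guide and star pairs, cell type markers, neighbours, and the 5 most and 3 least like miR-22. Up to 4 values per list and comparison were planned, but all 7 hepatocyte-enriched values are given for Ha-ras tumours against untreated controls. miR-23b, miR-30b and miR-720 were named after their values were seen. The members and lists were chosen with earlier results of these data known. Alternatives changed the scaling, background, floor, filter, probes, samples, slide and replicate block. The normexp background correction used an offset of 50. The relation with the scaling percentile, the lower floor on the brighter probe and the difference between strands within an array were added after seeing the data.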

Additional observations from a re-analysis of the deposited data

Results flagged for a closer look

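Among the 7 Ctnnb1 tumours, replicate 5 lay far above the others in miR-22: its level of 12.37 was 0.57 above the next array, 0.664 of the group's whole range, where 0.568 is Dixon's critical value for 7 samples. Chance marks about 1 in 20 groups in this way, and 2 strands were looked at. The gap was 0.655 of the range on the brighter probe, 0.600 on the dimmer and 0.685 after normexp background correction. It was 0.409 when arrays were scaled by the median, 0.318 under quantile scaling, 0.288 with the software's gene signal and 0.344 in the deposited table, below the critical value in each. With scaling over all mouse probes replicate 1 was highest. Replicate 5 had the lowest scaling percentile of the group, 463, and the highest level of 23 and the lowest of 11 of the 72 miRNAs detected on all arrays. By the same measure it stood apart as high for 2 of them and as low for 3. Its miR-122 (14.18), miR-29c (9.36) and miR-15a (9.0) were the highest of the 7, and its miR-22* (4.88) lay within the group. The part of the scaling in this value was not tested.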

How the results depend on the processing

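Values are log2 differences with limma's adjusted p. Scaling over all mouse probes reversed miR-22 in Ctnnb1 tumours against phenobarbital controls (0.13), in Ha-ras tumours against untreated controls (0.036) and between controls (-0.10), and miR-22* in the first (0.037) and last (-0.022) of these; it lost the call of miR-22 between tumours (0.0029, 0.990) and both calls of miR-22* (-0.16, 0.670 against untreated controls; 0.17, 0.497 between tumours). The small difference of miR-22 between Ctnnb1 tumours and phenobarbital controls also reversed with the median (0.062), quantile scaling (0.13), slide as a fixed block (0.36) and the replicate block (0.058). That between controls reversed with the software's gene signal (-0.10), as did miR-22* (-0.034, and -0.020 in the deposited table). miR-22 in Ha-ras tumours against untreated controls passed with the gene signal (-0.67, 0.0180) and slide as a random block (-0.54, 0.0403). Between tumours miR-22 lost its call in the deposited table (0.24, 0.187), with no filter (0.55, 0.199), with only both groups fitted (0.55, 0.0787), with slide as a fixed block (0.84, 0.0728) and within slide 1 (0.84, 0.176). miR-22* lost its call against untreated controls with normexp (-0.44, 0.134), the deposited table (-2.64, 0.132), slide as a fixed block (-0.30, 0.235) and within slide 2 (-0.35, 0.143), and between tumours with normexp (0.36, 0.113), the deposited table (2.26, 0.0878), slide as a fixed block (0.33, 0.186), within slide 1 (0.33, 0.176) and the dimmer probe (0.014, 0.896), where its 2 tumour effects also differed the other way (-0.028). The dimmer probe gave no value in Ha-ras tumours against untreated controls, both at the floor. The cause of these changes was not tested.

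Deviations of same-numbered samples correlated at -0.769 to 0.580, with no test, so whether replicate numbers pair samples is not settled. With the replicate block, miR-22 between tumours stood at 0.47 (0.276), miR-22* at -0.35 (0.0509) against untreated controls and 0.32 (0.225) between tumours. It moved the miRNAs called from 8 to 2 (Ctnnb1 against controls), 28 to 14 (Ha-ras against controls), 29 to 3 (between tumours) and 2 to 4 (difference of effects).

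With each array left out in turn, miR-22 ranged from -0.19 to -0.05 in Ctnnb1 tumours against controls, -0.70 to -0.39 in Ha-ras tumours against controls, 0.41 to 0.72 between tumours, 0.05 to 0.16 between controls and 0.30 to 0.61 for the difference of effects. miR-22* ranged from -0.14 to -0.05, -0.39 to -0.31, 0.31 to 0.35, 0.03 to 0.13 and 0.21 to 0.30. Leaving out a Ha-ras tumour could not move any miR-22* difference, since all Ha-ras tumours stood at the floor. The narrow ranges that involve them are therefore partly set by the floor.

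The miRNAs called also moved in Ctnnb1 tumours against controls (8) to 0 over all probes, 4 with the median, 2 with normexp, 5 with no filter, 4 with miRNAs detected on all arrays, and 1 and 20 with slide as a fixed and random block; in Ha-ras tumours against controls (28) to 12 over all probes, 13 with normexp, 12 in the deposited table, 18 with no filter, 9 with slide as a fixed block and 2 within slide 2; between tumours (29) to 19 with normexp, 6 with no filter, 19 with miRNAs detected on all arrays, 13 with only both groups, 8 with slide as a fixed block and 5 within slide 1; between controls (0) to 5 with the gene signal, 5 in the deposited table and 1 with no filter; and for the difference of effects (2) to 0 in the deposited table and with miRNAs detected on all arrays, 1 with normexp and 4 with slide as a random block. Leaving out 1 array gave 5 to 18, 13 to 33, 5 to 29, 0 to 1 and 2 to 3. Signals of miR-22* near background limit its differences.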
